A study of Mus musculus with 8 samples.

Results

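The metalloproteinase genes and their tissue inhibitors were followed in mouse lung adenocarcinoma cell lines as every gene whose symbol is Mmp, Adam, Adamts, Adamtsl or Timp followed directly by digits and at most 1 letter. The rule uses names alone and found 83 of the 23224 genes listed: 23 Mmp, 32 Adam, 19 Adamts, 5 Adamtsl and 4 Timp genes. Polyadenylated RNA was sequenced from 4 groups of 2 libraries, all of them Trp53-/- per the labels, so the controls lack Trp53 too. Tnonmet lines, from a primary lung adenocarcinoma that had not metastasised, were infected with retroviruses and lentiviruses carrying an shRNA against luciferase (shControl), against Nkx2-1 (shNkx2-1), or against Nkx2-1, Foxa2 and Cdx2 together (the triple knockdown). Tmet lines came from a metastatic primary tumour and have no shRNA in their labels, so tumour of origin, infection and metastasis cannot be told apart in a Tmet comparison. The labels give neither the animals' age nor strain, nor how many tumours or clones a group stands for. Whether the duplicates come from separate cultures is not stated either, and p-values then rest on a spread between libraries that may be technical.

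Matrix metalloproteinases (MMPs) are zinc enzymes, secreted or bound to the membrane, that cut collagens, laminins, other matrix proteins and many proteins at the cell surface. ADAMs are membrane proteins, of which the catalytically active ones release the outer parts of growth factors, cytokines, receptors and adhesion proteins, a step called shedding. ADAMTS enzymes are secreted, bind the matrix and cut proteoglycans and procollagens, whereas the ADAMTS-like proteins share their matrix-binding domains and lack the protease. Tissue inhibitors of metalloproteinases (TIMPs) bind the active site of these enzymes, and in carcinoma the balance of enzyme and inhibitor is studied for its part in invasion. RNA levels say nothing about how much of each enzyme was secreted, activated or inhibited.

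Several secreted MMP genes lie side by side on mouse chromosome 9, and their promoters are a textbook case of a TATA box with a nearby AP-1 site, the binding site of Fos and Jun proteins. The upstream sequences of Mmp3, Mmp10 and Mmp13 are shown because these are the 3 genes of that cluster with enough counts to test, and those of Timp1 and Timp3 because these inhibitors moved in opposite directions in the triple knockdown. Sequences are RefSeq's on build GRCm38.p6, another build than the mm9 of the files, all on the plus strand and read 5′ to 3′. Except for Timp3, they run up to the base before the RefSeq transcript start. That of Timp3 was cut to the first 210 of the 250 bases, because a GENCODE M21 transcript of the gene begins to overlap the window there. Positions are counted from the RefSeq start in every gene, Timp3 included. Capitals mark the letters TGANTCA (AP-1, N being any base), AGGAAG (PEA3, the site of a group of ETS factors) and TATAAA, searched on both strands with no overlap between matches.
Mmp3, chr9:7445572-7445821: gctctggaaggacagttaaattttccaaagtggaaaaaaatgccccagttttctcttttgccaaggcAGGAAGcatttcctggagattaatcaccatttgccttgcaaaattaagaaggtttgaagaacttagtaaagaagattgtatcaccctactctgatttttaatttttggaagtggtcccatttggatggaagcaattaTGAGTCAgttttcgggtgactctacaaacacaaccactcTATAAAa
Mmp10, chr9:7502092-7502341: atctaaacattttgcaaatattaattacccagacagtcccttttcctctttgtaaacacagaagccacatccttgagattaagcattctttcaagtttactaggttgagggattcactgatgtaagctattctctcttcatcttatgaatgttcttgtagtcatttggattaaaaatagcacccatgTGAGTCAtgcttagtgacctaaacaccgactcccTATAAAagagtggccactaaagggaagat
Mmp13, chr9:7272264-7272513: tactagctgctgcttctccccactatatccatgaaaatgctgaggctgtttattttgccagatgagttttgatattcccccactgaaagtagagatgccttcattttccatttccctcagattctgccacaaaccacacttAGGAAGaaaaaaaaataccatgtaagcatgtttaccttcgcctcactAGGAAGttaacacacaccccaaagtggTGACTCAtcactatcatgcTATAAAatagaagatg
Timp1, chrX:20869916-20870165: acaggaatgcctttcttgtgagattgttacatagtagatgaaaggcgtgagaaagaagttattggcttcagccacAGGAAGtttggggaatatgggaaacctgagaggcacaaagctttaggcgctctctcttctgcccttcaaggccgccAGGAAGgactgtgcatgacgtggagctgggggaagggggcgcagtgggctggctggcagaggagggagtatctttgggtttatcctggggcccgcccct
Timp3, chr10:86300162-86300371: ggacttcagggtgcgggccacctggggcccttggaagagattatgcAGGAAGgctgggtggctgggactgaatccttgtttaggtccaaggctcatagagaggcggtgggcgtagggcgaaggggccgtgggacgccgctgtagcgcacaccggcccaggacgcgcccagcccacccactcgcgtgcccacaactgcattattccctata

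The AP-1 match began 46 bases before the start in Mmp3, 63 in Mmp10 and 35 in Mmp13, and the TATAAA match 7, 29 and 16 bases before it. Neither Timp promoter held an AP-1 or TATAAA match, and their windows held 6 (Timp1) and 13 (Timp3, in 210 bases) CG pairs against 1 in each MMP window. PEA3 matches began 183 bases before the start in Mmp3, 109 and 62 in Mmp13, 175 and 99 in Timp1, and 204 in Timp3. In all 32851 RefSeq promoters, 6.75% held the AP-1 letters, 29.5% AGGAAG and 12.4% TATAAA within 250 bases, and the median window held 6 CG pairs. Of the 29 promoter entries of tested members (27 of the 40 genes matched by symbol), 13.8% held the AP-1 letters, 31% AGGAAG and 13.8% TATAAA. These are matches of letters, and whether a factor bound them was not measured.

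Of the 83 genes, 40 had enough counts to be tested. The other 43 were near or at 0, of which 14 had 0 counts in all 8 libraries and 29 had some, with no group mean above 0.647 CPM (counts scaled to library size). Most of the silent genes were Adam genes, 10 of 32, among them the neighbours Adam24, Adam25 and Adam39 and the neighbours Adam26b, Adam26a and Adam34 on chromosome 8, a group known for expression in the mouse testis. Mmp7 and Mmp20 had 0 counts in every library, the first being matrilysin, an enzyme of epithelial cells. Of the tested genes, 6 of 40 passed the filter through 1 group alone: Mmp2, Mmp3, Adamts2, Adamts12 and Adamtsl3 through Tmet, and Adam32 through shNkx2-1. For these a difference between that group and the rest was built into the filter.

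Total estimated counts were 14496995 to 21044835 per library, at which 3 counts, used as the floor, stood at 0.151 to 0.200 CPM. Levels are CPM with TMM scaling. Changes are log2 values ± SE from edgeR's quasi-likelihood test, called where p adjusted over all 13318 tested genes was under 0.05. The targeted gene Nkx2-1 was at 68.0 to 76.4 CPM with the control shRNA, 37.7 to 44.8 with shNkx2-1, 34.0 to 38.1 after the triple knockdown and 0.219 to 0.353 for Tmet. Foxa2 was at 55.1 to 56.8 CPM in shControl, 41.6 to 49.2 in shNkx2-1 and 28.2 to 34.1 in the triple knockdown. Cdx2 was at 98.6 to 110.7, 175 to 186 and 6.80 to 9.41 CPM in these groups. Against shControl, Cdx2 was called higher in shNkx2-1 (log2 change 0.79 ± 0.15, adjusted p = 0.0328 in edgeR). In Tmet Foxa2 and Cdx2 were at or under 1.36 CPM. The duplicates of Tmet differed more than others, with a chi-square per gene of 63.3 against 8.41 to 12.8.

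The cell types behind the labels were checked with marker lists. The 8 epithelial markers summed to 6939 to 11328 CPM in the 6 Tnonmet libraries and to 2625 and 1438 in Tmet, with Epcam and Cldn7 under 1 CPM in all 8 libraries. The 9 fibroblast markers summed to 5.40 to 20.3 CPM in Tnonmet and to 263.8 and 820 in Tmet, mostly Col1a1 and Col1a2, while Lum was at 0 and Thy1 and Fap at or under 0.164 CPM everywhere. Lung lineage markers summed to 206 to 333.8 CPM in Tnonmet and 85.2 and 59.2 in Tmet, with 6 of 8 under 1 CPM throughout. Leukocyte markers, 7 of 8 listed, summed to 1.41 to 4.54 CPM, and all 6 endothelial markers were under 1 CPM. Fewer cells of a type and less RNA per cell cannot be told apart in these bulk libraries.

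The inhibitors took different courses. Timp1 rose in the triple knockdown and again in Tmet, Timp3 fell in the triple knockdown, and Timp2 passed in no comparison of the fit over all 8 libraries, though in some alternatives. Timp1, on the X chromosome, is a secreted inhibitor of most MMPs that acts poorly on the membrane-bound ones. Timp1 levels in the shControl pair were 7.0 and 6.97 CPM, the shNkx2-1 pair 7.90 and 5.97, the triple knockdown pair 22.9 and 22.1, and the Tmet pair 110.4 and 215. The 2 triple knockdown libraries lay above all 4 other Tnonmet libraries, and both Tmet libraries lay above these, though they differed from each other by nearly as much as their lower value. Against shControl Timp1 rose in the triple knockdown (log2 change 1.69 ± 0.31, adjusted p = 0.00653) and in Tmet (log2 change 4.54 ± 0.33, adjusted p = 1.85e-05), and it also rose from the triple knockdown to Tmet (log2 change 2.85 ± 0.30, adjusted p = 0.000182). The rise in the triple knockdown missed the threshold without shControl replicate 1 (adjusted p = 0.0554 in edgeR) or replicate 2 (adjusted p = 0.0522 in edgeR). The fibroblast marker sum was 263.8 CPM in Tmet replicate 1 and 820 in replicate 2, the library with more Timp1. Other members given by library and called higher in Tmet than in shControl went both ways. Mmp3, Mmp14, Mmp24, Adam12, Adam19, Adam22 and Adamts1 were also higher in replicate 2. Mmp19, Adam8, Adamts4, Adamts6, Adamts7, Adamts9, Adamts10, Adamts14 and Adamtsl3 were higher in replicate 1. The part of the fibroblast sum in the Tmet result of Timp1 was not tested.

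Timp3 binds to the matrix and also inhibits Adam17 and several ADAMTS enzymes. Levels of Timp3 were 262 and 186 CPM under the control shRNA, 118 and 119.7 under shNkx2-1, 28.9 and 20.5 under the triple knockdown, and 29.4 and 134 for Tmet. Every triple knockdown library lay below every shControl and shNkx2-1 library, while the Tmet libraries split, 1 just above the triple knockdown and 1 between shNkx2-1 and shControl. Both shNkx2-1 libraries were below both of shControl, a difference that did not pass (log2 change -0.91 ± 0.56, adjusted p = 0.449). It passed in edgeR with the compared libraries alone in the fit (adjusted p = 0.00755) and without both Tmet libraries (0.0112). The fall in the triple knockdown passed against shControl (log2 change -3.18 ± 0.61, adjusted p = 0.00764) and against shNkx2-1 (log2 change -2.27 ± 0.59, adjusted p = 0.0306). The first missed the threshold without triple knockdown replicate 1 (adjusted p = 0.0518 in edgeR) or 2 (adjusted p = 0.0733 in edgeR), and the second in 6 of the 8 fits without 1 library and under a replicate block (adjusted p = 0.0567 in edgeR). In Tmet the difference from shControl did not pass (log2 change -1.46 ± 0.56, adjusted p = 0.0559), and the difference from the triple knockdown passed (log2 change 1.72 ± 0.58, adjusted p = 0.0407) but was lost without Tmet replicate 2 (adjusted p = 0.411 in edgeR), in 6 other fits without 1 library, under a replicate block, in limma-voom and with the compared libraries alone in the fit.

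Timp2 both inhibits MMPs and, bound to Mmp14 at the cell surface, helps to activate the precursor of Mmp2. Timp2 came to 486 and 533 CPM with shControl, 648 and 784 with shNkx2-1, 511 and 543 after the triple knockdown and 544 and 724 for Tmet. The shNkx2-1 and Tmet libraries were above those of shControl and the triple knockdown, all within 486 to 784 CPM. No difference passed against shControl, with log2 change 0.49 ± 0.16, adjusted p = 0.144 in shNkx2-1, log2 change 0.05 ± 0.16, adjusted p = 0.856 in the triple knockdown and log2 change 0.32 ± 0.16, adjusted p = 0.121 in Tmet, nor did the triple knockdown against shNkx2-1 (log2 change -0.44 ± 0.16, adjusted p = 0.0885). In edgeR the higher level in shNkx2-1 passed with the compared libraries alone in the fit (adjusted p = 0.0276) and without either or both Tmet libraries (0.0156 to 0.0166). In edgeR the triple knockdown against shNkx2-1 passed in the same fits (adjusted p from 0.00973 to 0.0133) and under a replicate block (0.0463). Without Tmet replicate 1 Tmet passed against shControl (adjusted p = 0.0063 in edgeR) and against the triple knockdown (0.0124). Per kilobase of its longest coding transcript (GENCODE M21), Timp2 was the most abundant inhibitor in shControl with a mean of 137 CPM per kb, ahead of Timp3 with 47.5 and Timp1 with 7.91. In Tmet the per-length level of Timp1 was 125 and 243.6 CPM per kb and that of Timp2 147 and 195, so that the libraries of both genes overlapped. Timp4, the inhibitor best known from heart, had 2 counts or fewer in each library and was not tested.

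**Figure D1:**
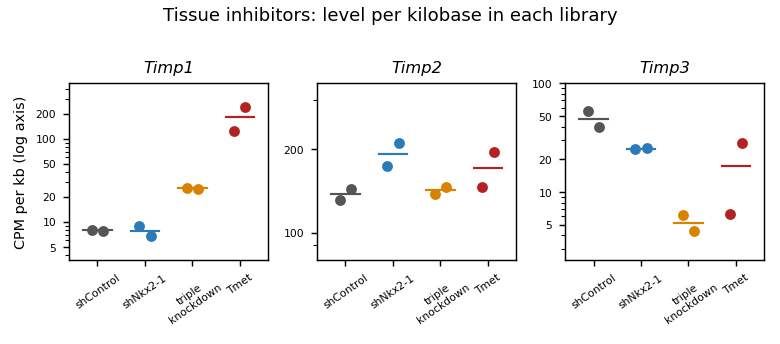
Level of the 3 tested inhibitors in each library, in CPM per kilobase of the longest coding transcript on a log axis, with points for libraries (n = 2 a group) and bars for group means. Timp2 means stay between 137 and 193, Timp1 climbs from 7.91 in shControl to 184 in Tmet, and Timp3 drops to 5.23 in the triple knockdown.

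Among the secreted MMPs, 2 stromelysins and a collagenase of the chromosome 9 cluster could be tested. Mmp3 is stromelysin-1, an enzyme of broad matrix specificity. Mmp3 levels in the shControl pair were 0.0667 and 0.155 CPM, the shNkx2-1 pair 0.486 and 0.507, the triple knockdown pair 0.543 and 0.128, and the Tmet pair 1.75 and 2.37. All levels were low, and both Tmet libraries lay above the other 6. Since Mmp3 entered the test through Tmet alone, this difference was built into the filter. Mmp3 rose in Tmet against shControl (log2 change 4.08 ± 0.68, adjusted p = 0.00131), where shControl held 4 counts in all, and against the triple knockdown (log2 change 2.58 ± 0.58, adjusted p = 0.00715), the latter call being lost without triple knockdown replicate 2 (adjusted p = 0.0575 in edgeR). Mmp10, stromelysin-2, ranged from 0.729 to 2.43 CPM over the 8 libraries and passed in no comparison. Mmp13 is collagenase-3, which cuts fibrillar collagen. Levels of Mmp13 were 7.54 and 5.83 CPM under the control shRNA, 7.90 and 8.34 under shNkx2-1, 6.81 and 7.12 under the triple knockdown, and 2.52 and 3.88 for Tmet. The 2 Tmet libraries were below the 6 Tnonmet libraries, which lay between 5.83 and 8.34 CPM. Mmp13 fell in Tmet against shControl (log2 change -1.05 ± 0.27, adjusted p = 0.00996) and against the triple knockdown (log2 change -1.12 ± 0.27, adjusted p = 0.00973). Without shControl replicate 1 the first was at adjusted p = 0.0651 in edgeR and with shControl and Tmet alone in the fit at 0.0542, and without triple knockdown replicate 2 the second was at 0.0526. The 3 promoters printed above all hold the AP-1 and TATAAA letters, and in Tmet against shControl Mmp3 rose, Mmp13 fell and Mmp10 passed in neither direction. The other 7 members of the run of 10 on chromosome 9 had no group mean above 0.224 CPM.

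Mmp11, stromelysin-3, is activated inside the cell by furin and is known for expression in the stroma of carcinomas. Mmp11 came to 29.5 and 45.6 CPM with shControl, 55.8 and 80.3 with shNkx2-1, 26.9 and 27.8 after the triple knockdown and 24.8 and 11.8 for Tmet. The shNkx2-1 libraries were the highest, with Tmet below shControl and the triple knockdown below shNkx2-1. The triple knockdown against shNkx2-1 passed (log2 change -1.32 ± 0.35, adjusted p = 0.0331), as did Tmet against shControl (log2 change -1.04 ± 0.35, adjusted p = 0.0354). Both calls were fragile: under a replicate block the adjusted p was 0.0629 and 0.0646 in edgeR, and without 1 library it reached 0.211 (without shNkx2-1 replicate 2) and 0.215 (without shControl replicate 2).

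Mmp28, epilysin, is a secreted enzyme found in epithelia, and it was nearly lost in Tmet. Mmp28 levels in the shControl pair were 24.7 and 18.2 CPM, the shNkx2-1 pair 35.1 and 32.1, the triple knockdown pair 25.9 and 25.5, and the Tmet pair 0.492 and 0.202. All Tnonmet libraries were between 18.2 and 35.1 CPM, with the triple knockdown inside the range of the other 4. Mmp28 fell in Tmet against shControl (log2 change -5.94 ± 0.32, adjusted p = 3.96e-06) and against the triple knockdown (log2 change -6.20 ± 0.32, adjusted p = 4.34e-06), and no alternative ended either call. Its exons overlap those of 1700020L24Rik on the opposite strand by 466 bases; that gene stood at 6.92 to 17.0 CPM in Tnonmet and at 0.273 and 0.101 in Tmet, and since the sources used here do not state whether counting used strand, reads of the overlap cannot be told apart. Mmp19, a secreted enzyme of basement membrane proteins, went the other way. Levels of Mmp19 were 0.467 and 0.206 CPM under the control shRNA, 0.790 and 0.507 under shNkx2-1, 0.965 and 1.79 under the triple knockdown, and 9.24 and 2.27 for Tmet. Its group means followed the order shControl, shNkx2-1, triple knockdown, Tmet without overlap. The Tmet differences passed, against shControl (log2 change 4.11 ± 0.81, adjusted p = 0.00314) and against the triple knockdown (log2 change 2.06 ± 0.68, adjusted p = 0.0367), the second being lost in 7 of the 8 fits without 1 library (adjusted p up to 0.255 in edgeR, without Tmet replicate 1), in limma-voom, under a replicate block and with the compared libraries alone in the fit. The triple knockdown against shControl did not pass (log2 change 2.06 ± 0.88, adjusted p = 0.128), but did with the compared libraries alone and without either or both Tmet libraries (adjusted p from 0.0144 to 0.0182 in edgeR). Mmp19 shares 789 exon bases with Tmem198b on the opposite strand, which stood at 13.9 to 34.1 CPM.

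The gelatinases, which cut denatured collagen, were scarce. Mmp2 had 0 counts in both shControl libraries and 1.59 and 1.51 CPM in Tmet (59 counts), at least 8.73-fold higher against the floor of 3 counts per library (adjusted p = 0.000556 in edgeR). Since Mmp2 entered the test through Tmet alone, this difference was built into the filter. Mmp9 had 0 to 6 counts in each library and was not tested.

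The membrane-type MMPs diverged within the group. Mmp14, which cuts collagen at the cell surface and activates the Mmp2 precursor, rose, and Mmp15, a close relative, was nearly lost. Mmp14 came to 5.87 and 8.26 CPM with shControl, 13.2 and 11.2 with shNkx2-1, 26.7 and 15.3 after the triple knockdown and 93.7 and 122 for Tmet. Its groups followed the order shControl, shNkx2-1, triple knockdown, Tmet without overlap. Mmp14 rose in the triple knockdown (log2 change 1.56 ± 0.30, adjusted p = 0.00749) and in Tmet (log2 change 3.92 ± 0.31, adjusted p = 2.84e-05) against shControl, and from the triple knockdown to Tmet (log2 change 2.36 ± 0.28, adjusted p = 0.000381). The call in the triple knockdown was lost without shControl replicate 1 (adjusted p = 0.0733 in edgeR).

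Mmp15 levels in the shControl pair were 11.7 and 8.83 CPM, the shNkx2-1 pair 8.26 and 7.89, the triple knockdown pair 1.02 and 0.385, and the Tmet pair 0.219 and 0.202. The groups stood in falling order without overlap, with the shControl and shNkx2-1 libraries between 7.89 and 11.7 CPM and the triple knockdown at 1.02 CPM or below. Mmp15 fell against shControl in the triple knockdown (log2 change -3.84 ± 0.39, adjusted p = 0.000492) and in Tmet (log2 change -5.56 ± 0.46, adjusted p = 3.5e-05), and against shNkx2-1 in the triple knockdown (log2 change -3.49 ± 0.40, adjusted p = 0.000963). None of these 3 calls was lost under any alternative, but the further fall from the triple knockdown to Tmet (log2 change -1.73 ± 0.58, adjusted p = 0.0368) was lost in 6 of 8 fits without 1 library and in limma-voom (adjusted p = 0.0896).

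Mmp24, a membrane-type enzyme described mainly in the nervous system, was highest in the triple knockdown. Levels of Mmp24 were 0.0667 and 0.103 CPM under the control shRNA, 0.365 and 0.676 under shNkx2-1, 8.44 and 7.05 under the triple knockdown, and 1.31 and 2.42 for Tmet. Both triple knockdown libraries were above both Tmet libraries, which were above all 4 others. With 3 counts in shControl, the ratio to shControl was 89.0 in the triple knockdown (95% exact counting interval 30.1 to 434) and 21.6 in Tmet (7.11 to 107). Mmp24 also rose in the triple knockdown against shNkx2-1 (log2 change 3.87 ± 0.44, adjusted p = 0.00097) and was lower in Tmet than in the triple knockdown (log2 change -2.04 ± 0.38, adjusted p = 0.00301). BC029722, which overlaps Mmp24 by 637 exon bases on the opposite strand, stood at 37.4 to 49.2 CPM in shControl and shNkx2-1, 73.1 to 73.9 in the triple knockdown and 46.9 to 53.8 in Tmet, and its part in the Mmp24 values was not tested. Mmp17, another membrane-type enzyme, had 3 to 12 counts in each library, and Mmp16 and Mmp25 had 0 to 12.

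Of the 10 tested Mmp genes, 2 were called higher and 1 lower in the triple knockdown against shControl, beside 24.4% of all genes tested (12% higher and 12.4% lower). In Tmet against shControl 5 were called higher and 4 lower, beside 57.3% of all genes (29.2% higher and 28.1% lower). The rises include Mmp2 and Mmp3, which had entered the test through Tmet alone and so had to differ. In Tmet, where Mmp2, Mmp3, Mmp14 and Mmp19 rose and Mmp15 and Mmp28 fell, the fibroblast marker sum was higher and the epithelial sum lower. Mmp15 also fell in the triple knockdown, where the epithelial sum was 10374 and 11328 CPM against 8328 and 8073 in shControl. The list was mixed there: of 6 tested epithelial markers 3 were called higher and 1, Cdh1, lower, beside 12% and 12.4% of all genes. The part of either sum in these results was not tested.

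**Figure D2:**
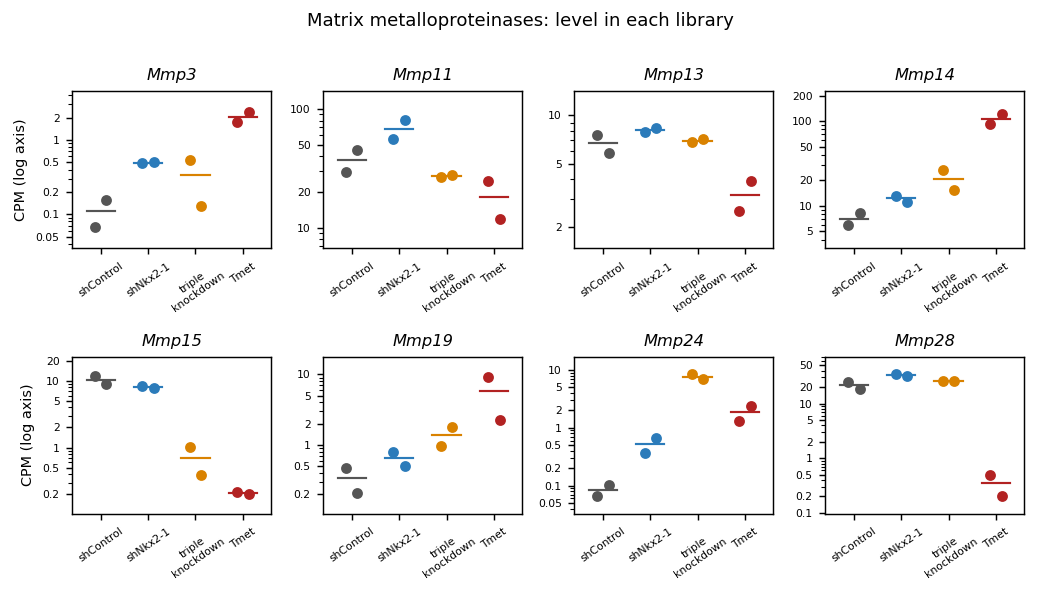
Level of 8 Mmp genes in each library, in CPM on a log axis, with points for libraries (n = 2 a group) and bars for group means. Mmp14 and Mmp19 climb across the 4 groups, Mmp15 falls across them, Mmp24 peaks in the triple knockdown and Mmp28 drops in Tmet to 0.492 and 0.202 CPM.

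Of the main sheddases Adam10 fell in Tmet and Adam17 passed in no comparison, while less abundant ADAM genes rose. Adam10 releases, among others, E-cadherin and the Notch receptors. Adam10 came to 289 and 271 CPM with shControl, 267 and 296 with shNkx2-1, 237 and 265 after the triple knockdown and 124 and 138 for Tmet. The 6 Tnonmet libraries were between 237 and 296 CPM and both Tmet libraries at 124 and 138 CPM. Adam10 fell in Tmet against shControl (log2 change -1.10 ± 0.11, adjusted p = 0.000116) and against the triple knockdown (log2 change -0.94 ± 0.11, adjusted p = 0.000376).

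Adam9 is a widely expressed catalytically active family member. Adam9 levels in the shControl pair were 399 and 407 CPM, the shNkx2-1 pair 372 and 388, the triple knockdown pair 381 and 397, and the Tmet pair 159 and 167. As with Adam10, Tmet was separate from Tnonmet, whose 6 libraries lay between 372 and 407 CPM. Adam9 fell in Tmet against shControl (log2 change -1.30 ± 0.09, adjusted p = 1.76e-05) and against the triple knockdown (log2 change -1.25 ± 0.09, adjusted p = 3.16e-05), and it was the most abundant Adam gene per length in shControl at a mean of 99.6 CPM per kb, with Adam10 at 61.0. No alternative ended the Tmet calls of Adam9 and Adam10. Adam17, the main sheddase of tumour necrosis factor and of several ligands of the epidermal growth factor receptor, ranged from 74.2 to 93.0 CPM and passed in no comparison (in Tmet against shControl log2 change -0.27 ± 0.10, adjusted p = 0.0522). Adam15 ranged from 96.6 to 157 CPM and passed in none either.

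Adam8, a sheddase first known from leukocytes, was highest in the triple knockdown. Levels of Adam8 were 5.27 and 3.87 CPM under the control shRNA, 11.4 and 6.70 under shNkx2-1, 52.4 and 53.8 under the triple knockdown, and 17.3 and 15 for Tmet. Both triple knockdown libraries exceeded both Tmet libraries, and these exceeded all 4 of the others. Adam8 was lower in Tmet than in the triple knockdown (log2 change -1.71 ± 0.25, adjusted p = 0.000921) and higher in Tmet than in shControl (log2 change 1.83 ± 0.27, adjusted p = 0.000722), and the triple knockdown exceeded shNkx2-1 (log2 change 2.56 ± 0.26, adjusted p = 0.000552). The leukocyte marker sum was 3.44 and 4.17 CPM in the triple knockdown against 1.53 and 1.96 in shControl, mostly Cd68, with no other leukocyte marker over 1 CPM. Its part in the Adam8 result was not tested.

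Adam12 and Adam19, both active enzymes known from mesenchymal cells, rose in the triple knockdown and in Tmet. Adam12 came to 18.6 and 34.2 CPM with shControl, 38.6 and 57.4 with shNkx2-1, 61.8 and 80.6 after the triple knockdown and 50.7 and 63.9 for Tmet. The shControl libraries were lowest, all below shNkx2-1, which was below the triple knockdown. Adam12 rose in the triple knockdown (log2 change 1.43 ± 0.31, adjusted p = 0.0135) and in Tmet (log2 change 1.11 ± 0.31, adjusted p = 0.0158) against shControl, and without shControl replicate 1 both calls were lost (adjusted p = 0.0826 and 0.0942 in edgeR), the first also without triple knockdown replicate 2 (adjusted p = 0.0895 in edgeR).

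Adam19 levels in the shControl pair were 1.00 and 1.6 CPM, the shNkx2-1 pair 5.04 and 3.94, the triple knockdown pair 15 and 14.6, and the Tmet pair 2.19 and 16.5. The Tmet libraries lay far apart, 1 of them near shControl and 1 above the triple knockdown. Neither shNkx2-1 against shControl (log2 change 1.76 ± 0.84, adjusted p = 0.317) nor the triple knockdown against shNkx2-1 (log2 change 1.71 ± 0.73, adjusted p = 0.14) passed. In edgeR both passed with the compared libraries alone (adjusted p = 0.0112 and 0.000378) and without both Tmet libraries (0.00448 and 0.000359). Adam19 rose in the triple knockdown (log2 change 3.48 ± 0.83, adjusted p = 0.0188) and in Tmet (log2 change 2.82 ± 0.82, adjusted p = 0.0189). The first call was lost without any 1 of the 4 libraries compared (adjusted p from 0.0682 to 0.136 in edgeR). The second was lost without either shControl library, without Tmet replicate 2 (adjusted p = 0.11 in edgeR), with shControl and Tmet alone in the fit and in limma-voom.

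Adam22 has no protease activity and is known as a neuronal receptor. Levels of Adam22 were 1.33 and 1.65 CPM under the control shRNA, 2.92 and 2.87 under shNkx2-1, 2.65 and 3.40 under the triple knockdown, and 25.4 and 30.7 for Tmet. The Tmet libraries stood well above the other 6. Adam22 rose in Tmet against shControl (log2 change 4.22 ± 0.24, adjusted p = 5.12e-06) and against the triple knockdown (log2 change 3.21 ± 0.22, adjusted p = 2.15e-05). The smaller rise in the triple knockdown (log2 change 1.00 ± 0.25, adjusted p = 0.0232) was lost without either shControl library or triple knockdown replicate 2 (adjusted p up to 0.148 in edgeR) and in limma-voom (adjusted p = 0.0692).

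Of the 13 tested Adam genes, 4 were called in the triple knockdown against shControl, each of them higher (30.8%, beside 24.4% of all genes). In Tmet 4 were higher and 2 lower, 46.2% beside 57.3%. The rises of Adam12, Adam19 and Adam22 in Tmet went with the fibroblast marker sum, whose part in them was not tested. In the triple knockdown that sum was 20.1 and 20.3 CPM against 5.40 and 5.47 in shControl, and its part there was not tested either.

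**Figure D3:**
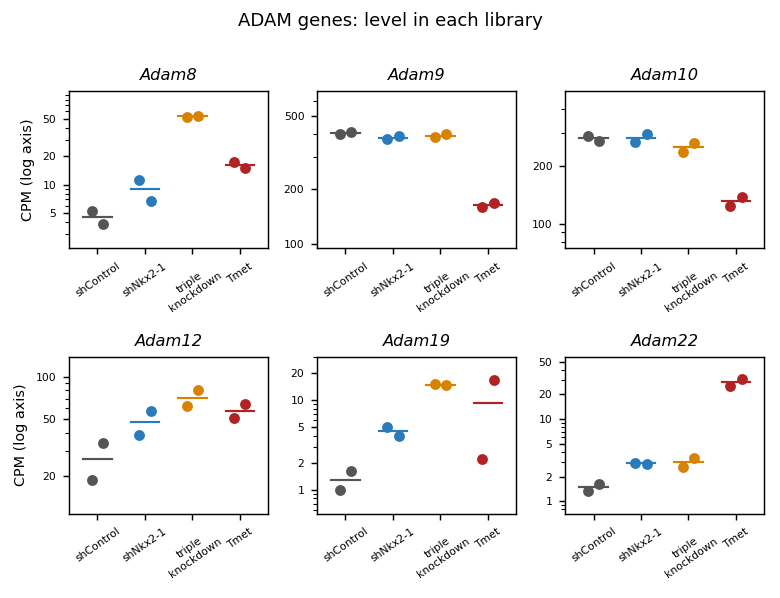
Level of 6 Adam genes in each library, in CPM on a log axis, with points for libraries (n = 2 a group) and bars for group means. Adam9 and Adam10 are lower in both Tmet libraries than in all 6 others, Adam8 peaks in the triple knockdown at 52.4 and 53.8 CPM, and the Adam19 libraries of Tmet lie at 2.19 and 16.5 CPM.

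All 11 ADAMTS genes that passed the filter were called in Tmet against shControl, 9 higher and 2 lower, of which Adamts2 and Adamts12 had entered the test through Tmet alone. Beside this stand 57.3% of all genes (29.2% higher and 28.1% lower). In the triple knockdown 3 were called higher and 3 lower, 54.5% beside 24.4% (12% higher and 12.4% lower). Among the enzymes known to cut aggrecan and versican, Adamts4 and Adamts9 rose in Tmet, Adamts15 fell in both, and Adamts1 changed direction between them.

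Adamts4 is known as aggrecanase-1. Adamts4 came to 0.0667 and 0.516 CPM with shControl, 0.790 and 0.676 with shNkx2-1, 1.09 and 1.41 after the triple knockdown and 31.5 and 9.88 for Tmet. The groups followed the order shControl, shNkx2-1, triple knockdown, Tmet without overlap, and the Tmet libraries lay far apart. Adamts4 rose in Tmet against shControl (log2 change 6.01 ± 0.77, adjusted p = 0.000357) and against the triple knockdown (log2 change 4.04 ± 0.65, adjusted p = 0.00157), and the triple knockdown did not pass (log2 change 1.96 ± 0.90, adjusted p = 0.153). That difference passed in DESeq2 (adjusted p = 0.0357), and in edgeR with the compared libraries alone or without either or both Tmet libraries (0.0192 to 0.0318).

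Adamts9, an enzyme of the same substrates, was also highest in Tmet. Adamts9 levels in the shControl pair were 1.40 and 0.671 CPM, the shNkx2-1 pair 4.98 and 2.76, the triple knockdown pair 1.87 and 3.65, and the Tmet pair 28.5 and 22.4. The shControl libraries were lowest and the shNkx2-1 and triple knockdown libraries overlapped. Adamts9 rose in Tmet against shControl (log2 change 4.65 ± 0.48, adjusted p = 0.00011) and against the triple knockdown (log2 change 3.21 ± 0.42, adjusted p = 0.000605), while neither shNkx2-1 (log2 change 1.93 ± 0.49, adjusted p = 0.0787) nor the triple knockdown (log2 change 1.44 ± 0.50, adjusted p = 0.0735) passed against shControl. Both passed in DESeq2 (adjusted p = 0.00401 and 0.0222). In edgeR they passed with no filter, with the compared libraries alone and without either or both Tmet libraries (adjusted p from 0.0244 to 0.0308 for shNkx2-1 and from 0.0337 to 0.0467 for the triple knockdown).

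Adamts1 was lowest in the triple knockdown and had its highest mean in Tmet. Levels of Adamts1 were 5.54 and 4.34 CPM under the control shRNA, 7.23 and 11.1 under shNkx2-1, 1.81 and 1.22 under the triple knockdown, and 10.2 and 21.3 for Tmet. The shControl libraries lay between, below those of shNkx2-1, which overlapped with Tmet. Adamts1 fell in the triple knockdown against shNkx2-1 (log2 change -2.59 ± 0.44, adjusted p = 0.00573), a call lost without triple knockdown replicate 2 (adjusted p = 0.0589 in edgeR), and rose from the triple knockdown to Tmet (log2 change 3.37 ± 0.44, adjusted p = 0.000583). Against shControl the fall in the triple knockdown (log2 change -1.69 ± 0.45, adjusted p = 0.0293) was lost without any 1 of the 4 libraries compared (adjusted p up to 0.168 in edgeR) and in limma-voom (adjusted p = 0.0969), and the rise in Tmet (log2 change 1.68 ± 0.39, adjusted p = 0.007) was lost without shControl replicate 2 (adjusted p = 0.0602 in edgeR).

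Adamts15 and Adamts17 shared a course in which shNkx2-1 was the highest group and every library of the triple knockdown and Tmet was at or under 1.03 CPM. Adamts15 is another versican-cleaving enzyme. Adamts15 came to 7.80 and 6.04 CPM with shControl, 17.5 and 24.2 with shNkx2-1, 0.784 and 1.03 after the triple knockdown and 0.601 and 0.756 for Tmet. Both shNkx2-1 libraries exceeded both of shControl, and these exceeded the other 4. Adamts15 rose in shNkx2-1 (log2 change 1.59 ± 0.25, adjusted p = 0.0185) and fell in the triple knockdown (log2 change -2.93 ± 0.31, adjusted p = 0.000542) and Tmet (log2 change -3.33 ± 0.31, adjusted p = 6.91e-05) against shControl.

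Adamts17 is linked to fibrillin microfibrils. Adamts17 levels in the shControl pair were 2.20 and 1.19 CPM, the shNkx2-1 pair 5.41 and 7.89, the triple knockdown pair 0.181 and 0.0641, and the Tmet pair 0.164 and 0.101. The order of groups was that of Adamts15, again without overlap between shNkx2-1, shControl and the other 4 libraries. Adamts17 rose in shNkx2-1 (log2 change 1.99 ± 0.41, adjusted p = 0.043) and fell in the triple knockdown (log2 change -3.68 ± 0.64, adjusted p = 0.00458) and Tmet (log2 change -3.60 ± 0.61, adjusted p = 0.00135). From shNkx2-1 to the triple knockdown Adamts15 fell (log2 change -4.52 ± 0.31, adjusted p = 9.9e-05), and so did Adamts17 (log2 change -5.67 ± 0.59, adjusted p = 0.000578). The falls passed under every alternative, whereas the rises in shNkx2-1 did not: that of Adamts15 was lost without either library of shControl or shNkx2-1 (adjusted p up to 0.149 in edgeR), and that of Adamts17 whichever 1 of the 6 Tnonmet libraries was left out (up to 0.28) and under a replicate block (0.0699).

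The procollagen N-proteinases, which trim fibrillar collagen precursors, are Adamts2, Adamts3 and Adamts14. Levels of Adamts14 were 0.267 and 0.619 CPM under the control shRNA, 1.22 and 1.07 under shNkx2-1, 8.62 and 8.78 under the triple knockdown, and 20.4 and 11.3 for Tmet. Its 4 groups stood in rising order without overlap. Adamts14 rose in the triple knockdown (log2 change 4.22 ± 0.44, adjusted p = 0.000517) and in Tmet (log2 change 5.08 ± 0.44, adjusted p = 4.38e-05) against shControl and in the triple knockdown against shNkx2-1 (log2 change 2.92 ± 0.39, adjusted p = 0.00197), and all 3 calls passed under every alternative. Adamts2 had 1 count in shControl and 73 in Tmet, a ratio of 65.8 (95% exact counting interval 11.4 to 2634, adjusted p = 0.00119 in edgeR). Since Adamts2 entered the test through Tmet alone, this difference was built into the filter. Adamts3 had 0 counts in shControl and 16 in Tmet, at least 2.32-fold higher against the floor per library, and was not tested.

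Adamts7 and Adamts12 are related enzymes known to cut cartilage oligomeric matrix protein. Adamts7 came to 0.467 and 0.723 CPM with shControl, 0.486 and 2.03 with shNkx2-1, 4.70 and 6.03 after the triple knockdown and 15.3 and 13.9 for Tmet. The 2 triple knockdown libraries were above the other 4 Tnonmet libraries and below Tmet. Adamts7 rose in the triple knockdown (log2 change 3.13 ± 0.56, adjusted p = 0.00555) and in Tmet (log2 change 4.57 ± 0.55, adjusted p = 0.000256), and the first call was lost without shControl replicate 1 (adjusted p = 0.0602 in edgeR). It shares 122 exon bases with Tbc1d2b on the opposite strand, which ranged from 20.0 to 32.8 CPM. Adamts12 had 2 counts in shControl and 51 in Tmet, a ratio of 23.0 (95% exact counting interval 6.05 to 195, adjusted p = 0.00335 in edgeR). Since Adamts12 entered the test through Tmet alone, this difference was built into the filter.

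Adamts6 and Adamts10 are homologues linked to fibrillin microfibrils. Adamts6 levels in the shControl pair were 3.27 and 2.89 CPM, the shNkx2-1 pair 4.68 and 3.89, the triple knockdown pair 11.4 and 11.6, and the Tmet pair 17.7 and 12.1. Its 4 groups stood in rising order without overlap. Adamts6 rose in the triple knockdown (log2 change 1.90 ± 0.25, adjusted p = 0.00145) and in Tmet (log2 change 2.28 ± 0.25, adjusted p = 0.000152) against shControl under every alternative. Levels of Adamts10 were 15.3 and 20.7 CPM under the control shRNA, 20.0 and 20.9 under shNkx2-1, 8.56 and 9.04 under the triple knockdown, and 50.4 and 24.0 for Tmet. Here the triple knockdown was lowest and Tmet highest. Adamts10 rose in Tmet against shControl (log2 change 1.04 ± 0.32, adjusted p = 0.023) and against the triple knockdown (log2 change 2.08 ± 0.33, adjusted p = 0.00163), the first call being lost without either shControl library or Tmet replicate 1 (adjusted p up to 0.151 in edgeR) and with shControl and Tmet alone in the fit. The fall from shNkx2-1 to the triple knockdown (log2 change -1.22 ± 0.33, adjusted p = 0.0367) was lost whichever 1 of the 6 Tnonmet libraries was left out, in limma-voom and under a replicate block (adjusted p = 0.0619 in edgeR). The triple knockdown against shControl did not pass (log2 change -1.03 ± 0.33, adjusted p = 0.0573), but did in DESeq2 (adjusted p = 0.0142) and in 5 edgeR alternatives (0.0011 to 0.0232).

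The ADAMTS-like genes encode matrix proteins without protease activity. Adamtsl3 had 0 counts in shControl and stood at 6.78 and 5.09 CPM in Tmet (225 counts), at least 33.4-fold higher against the floor per library (adjusted p = 8.81e-05 in edgeR). No Tnonmet library exceeded 0.122 CPM, and since Adamtsl3 entered the test through Tmet alone, its difference was built into the filter.

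Adamtsl4 binds fibrillin microfibrils. Adamtsl4 came to 66.6 and 83.7 CPM with shControl, 71.2 and 102 with shNkx2-1, 40.2 and 35.6 after the triple knockdown and 21.5 and 16.7 for Tmet. The Tmet libraries were lowest and the triple knockdown libraries next. Adamtsl4 fell in the triple knockdown (log2 change -0.99 ± 0.21, adjusted p = 0.0126) and in Tmet (log2 change -1.97 ± 0.22, adjusted p = 0.000176) against shControl. The first call was lost without shControl replicate 2 or either triple knockdown library (adjusted p up to 0.1 in edgeR).

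Adamtsl5 levels in the shControl pair were 48.2 and 53.2 CPM, the shNkx2-1 pair 82.9 and 85.3, the triple knockdown pair 56.3 and 57.0, and the Tmet pair 8.80 and 7.26. Adamtsl5 was highest in shNkx2-1 and lowest in Tmet, with the triple knockdown just above shControl. It rose in shNkx2-1 (log2 change 0.73 ± 0.13, adjusted p = 0.0267) and fell in Tmet (log2 change -2.66 ± 0.14, adjusted p = 3.37e-06). The rise was lost whichever 1 of the 6 Tnonmet libraries was left out (adjusted p up to 0.284 in edgeR) and under a replicate block (adjusted p = 0.0528 in edgeR), and the fall passed under every alternative. In Tmet the fibroblast marker sum moved with the rises in these 2 families. The epithelial sum there moved with the falls of Adamtsl4, Adamtsl5, Adamts15 and Adamts17. Adamtsl4, Adamts15 and Adamts17 also fell in the triple knockdown, where the epithelial sum was 10374 and 11328 CPM against 8328 and 8073 in shControl. As given above, the epithelial list was mixed there, with Cdh1 called lower. The part of either sum in these results was not tested.

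**Figure D4:**
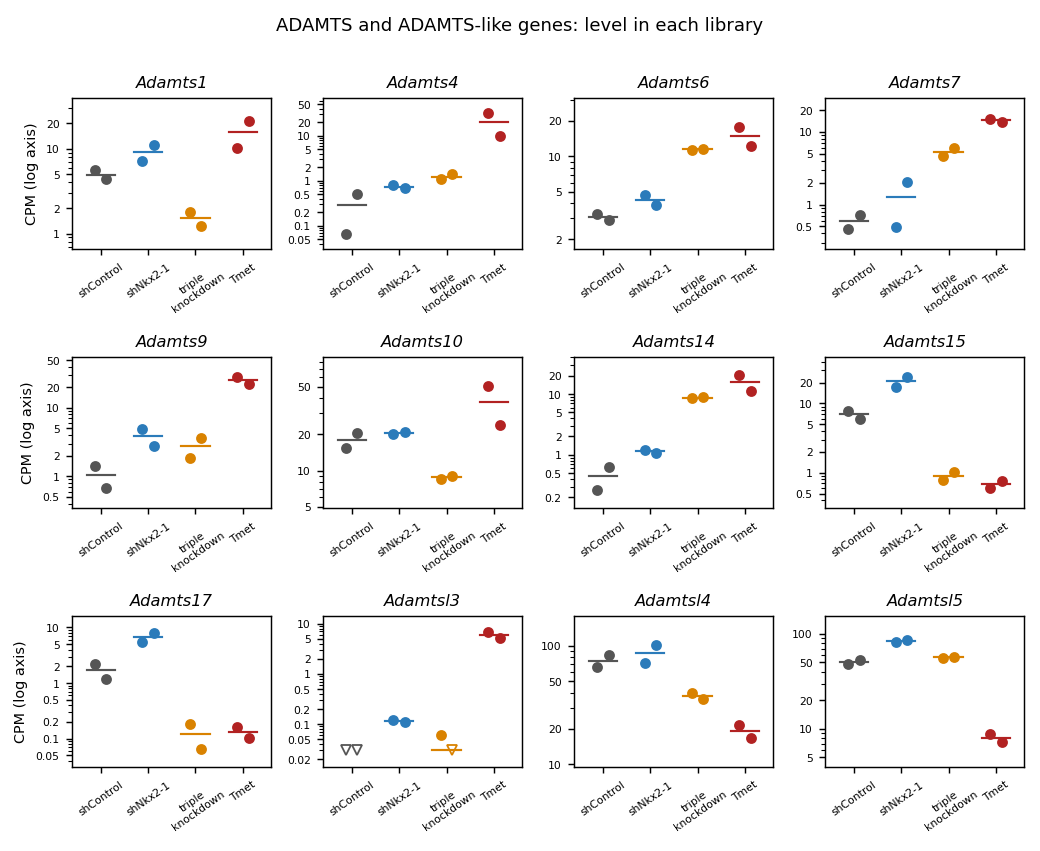
Level of 9 Adamts and 3 Adamtsl genes in each library, in CPM on a log axis, with points for libraries (n = 2 a group), bars for group means and open triangles for libraries with 0 counts. Adamts15 and Adamts17 peak in shNkx2-1 and are at or under 1.03 CPM in the triple knockdown and Tmet, while Adamts4, Adamts9, Adamts14 and Adamtsl3 are highest in Tmet.

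Counts over the 40 tested members summarise each comparison, and the 3 comparisons with shControl share its libraries. In shNkx2-1 against shControl 3 were called higher and 0 lower, beside 3.55% of all genes tested (2.17% higher and 1.38% lower). At an unadjusted p under 0.05, 16 were higher and 2 lower, beside 1413 and 1088 of the 13318 genes, and DESeq2 called 5 higher and 0 lower, beside 552 and 356. The median change of members was 0.75 on the log2 scale against 0.00 for all genes. In the triple knockdown against shControl 10 were called higher and 6 lower, 40% of the tested members beside the 24.4% of all genes given above, with a median of 0.11 against 0.00. In Tmet against shControl 20 were called higher and 10 lower, 75% beside 57.3%, with a median of 0.93 against 0.02. The triple knockdown against shNkx2-1 had 6 higher and 10 lower beside 20.4% of all genes called (9.27% higher and 11.1% lower), and Tmet against the triple knockdown 15 higher and 9 lower beside 48.1% (24% higher and 24.1% lower). Since 5 members entered through Tmet alone, the counts of Tmet rises include genes that had to differ. Groups of 2 often separate without any call: the libraries did not overlap in 27 of the 40 members between shNkx2-1 and shControl (58.4% of all genes tested), 30 between the triple knockdown and shControl (72.4%), 35 between Tmet and shControl (77.2%), 33 between the triple knockdown and shNkx2-1 (70%) and 35 between Tmet and the triple knockdown (72.1%).

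Among the 34 members that reached the filter's level in more than 1 group, the highest group mean was that of Tmet in 15 (44.1%, beside 38.1% of all such genes) and that of shNkx2-1 in 11 (32.4%, beside 21.5%). Of the members, 5 of 40 stood in the rising order shControl, shNkx2-1, triple knockdown, Tmet with no overlap between neighbours (Mmp14, Mmp19, Adamts4, Adamts6 and Adamts14), beside 2.44% of all genes, and 1 stood in the falling order (Mmp15), beside 3.48%.

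**Figure D5:**
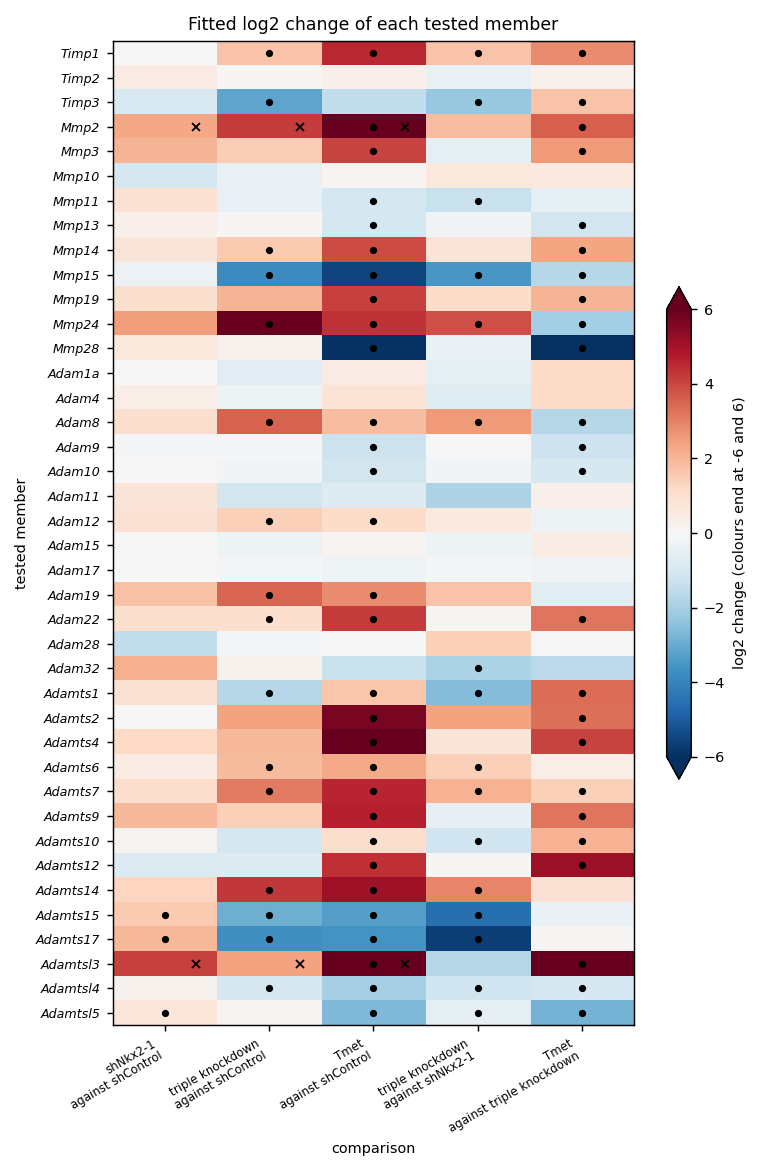
Fitted log2 change of the 40 tested members in the 5 comparisons, with dots where the adjusted p was under 0.05 and crosses where a group had 0 counts, so that the colour depends on a prior count. The Tmet column against shControl holds 20 dots for rises and 10 for falls, and the shNkx2-1 column 3 dots, all for rises.

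Genes that act with these enzymes were taken from general lists. Of 8 tested regulators (inhibitors, activating convertases and clearance receptors), 3 were higher and 3 lower with the triple knockdown and 2 were higher and 4 lower for Tmet. This is 75% in both, beside the 24.4% and 57.3% of all genes. Thrombospondins bind MMPs and hand them to the clearance receptor Lrp1. Levels of Thbs1 were 2875 and 3379.6 CPM under the control shRNA, 809 and 1768 under shNkx2-1, 98.5 and 77.6 under the triple knockdown, and 528 and 1073 for Tmet. The triple knockdown libraries were the lowest and those of shControl the highest, with shNkx2-1 and Tmet overlapping between them. Thbs1 fell in the triple knockdown (log2 change -5.15 ± 0.48, adjusted p = 0.000308) and in Tmet (log2 change -1.97 ± 0.42, adjusted p = 0.00447). Thbs2 was at or under 0.338 CPM in Tnonmet and at 61.3 and 40.8 CPM in Tmet (log2 change 8.13 ± 0.35, adjusted p = 1.25e-06). Lrp1 came to 71.3 and 94.8 CPM with shControl, 48.2 and 82.5 with shNkx2-1, 28.7 and 48.8 after the triple knockdown and 621 and 782 for Tmet. Tmet stood well above the rest, with Lrp1 up there (log2 change 3.08 ± 0.33, adjusted p = 0.000147).

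Tetraspanins of one subfamily carry Adam10 to the cell surface and steer it to substrates, and iRhoms do so for Adam17. Of 8 such genes tested, 1 was called in the triple knockdown, lower, and 1 was higher and 1 lower for Tmet, or 12.5% beside 24.4% and 25% beside 57.3%. The fall in Tmet was that of Tspan15, the partner with which Adam10 sheds N-cadherin. Tspan15 levels in the shControl pair were 84.8 and 81.6 CPM, the shNkx2-1 pair 69.8 and 77.9, the triple knockdown pair 93.0 and 88.4, and the Tmet pair 17.8 and 16.0. Tspan15 fell in Tmet (log2 change -2.30 ± 0.12, adjusted p = 3.68e-06) with both libraries below the 6 of Tnonmet.

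Of 22 tested substrates of these sheddases, 8 were higher and 4 lower with the triple knockdown (54.5% called, beside 24.4%) and 5 were higher and 10 lower for Tmet (68.2%, beside 57.3%). Cdh1, E-cadherin, was at 682 to 1005 CPM in Tnonmet and at 3.17 and 3.33 in Tmet (log2 change -8.23 ± 0.18, adjusted p = 1.11e-07). Cdh1 was also called lower in the triple knockdown against shControl, a call lost in fits that left out 1 of the libraries compared. Tnfrsf1b, a tumour necrosis factor receptor, was at 32.1 to 64.9 CPM in Tnonmet and at 3.06 and 3.48 in Tmet (log2 change -3.47 ± 0.21, adjusted p = 6.22e-06). Il6ra, the interleukin-6 receptor, rose instead. Levels of Il6ra were 2.13 and 2.68 CPM under the control shRNA, 4.07 and 3.83 under shNkx2-1, 12.3 and 13.9 under the triple knockdown, and 24.1 and 25.2 for Tmet. Each group lay above the one before it, and the rise passed in the triple knockdown (log2 change 2.43 ± 0.20, adjusted p = 0.000181) and in Tmet (log2 change 3.34 ± 0.20, adjusted p = 6.32e-06).

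Plasmin activates several MMP precursors, and of 7 tested genes of plasminogen activation 4 were called in the triple knockdown and 4 in Tmet, each of them higher. The share of 57.1% stands beside 24.4% of all genes in the first and is at the background of 57.3% in the second. Plau is the urokinase-type activator. Plau came to 14.6 and 14.6 CPM with shControl, 21.5 and 15.2 with shNkx2-1, 31.5 and 28.7 after the triple knockdown and 58.7 and 47.9 for Tmet. Plau rose in the triple knockdown (log2 change 1.04 ± 0.19, adjusted p = 0.00647) and in Tmet (log2 change 1.87 ± 0.19, adjusted p = 0.000117), with each of the 2 groups above all libraries of shControl and shNkx2-1. The first of these calls was lost without either shControl library or triple knockdown replicate 1 (adjusted p up to 0.0625 in edgeR).

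Of 8 tested zinc metalloendopeptidases of other families, 1 was higher and 2 lower with the triple knockdown (37.5%, beside 24.4%) and 3 were higher and 2 lower for Tmet (62.5%, beside 57.3%). Mep1a, a meprin subunit of intestine and kidney, was also low in the triple knockdown and Tmet. Mep1a levels in the shControl pair were 10.1 and 8.0 CPM, the shNkx2-1 pair 7.78 and 6.93, the triple knockdown pair 0.422 and 0.256, and the Tmet pair 0.492 and 0.504. It fell in the triple knockdown (log2 change -4.70 ± 0.34, adjusted p = 0.000113) and in Tmet (log2 change -4.16 ± 0.31, adjusted p = 2.14e-05), with shControl and shNkx2-1 above all 4 other libraries. Bmp1, which cuts the other end of procollagens than Adamts14 does, was at 76.4 to 102 CPM in Tnonmet and at 293 and 244 in Tmet (log2 change 1.78 ± 0.13, adjusted p = 1.72e-05).

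Of 9 tested proteoglycan and microfibril genes, 4 were higher and 1 lower with the triple knockdown (55.6%, beside 24.4%) and 6 were higher and 2 lower for Tmet (88.9%, beside 57.3%). Acan, aggrecan, and Vcan, versican, are both substrates of the ADAMTS enzymes above and differed in where they were high. Levels of Acan were 34.1 and 34.9 CPM under the control shRNA, 105 and 66.7 under shNkx2-1, 351 and 388 under the triple knockdown, and 151 and 103 for Tmet. The triple knockdown was the highest group, and Acan rose there (log2 change 3.42 ± 0.26, adjusted p = 0.000135) and in Tmet (log2 change 1.88 ± 0.24, adjusted p = 0.0004). Acan was also called higher in shNkx2-1 against shControl, a call lost in fits that left out 1 Tnonmet library. Vcan stood at 1.28 to 2.27 CPM in Tnonmet and at 238 and 346 in Tmet (log2 change 7.34 ± 0.28, adjusted p = 7.84e-07). Fbn1, fibrillin-1, was at or under 1.27 CPM in Tnonmet and at 238 and 287 in Tmet (log2 change 8.41 ± 0.37, adjusted p = 1.38e-06). As with the members, the fibroblast sum was higher and the epithelial sum lower in Tmet, and their part in the Tmet results of these lists was not tested.

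Of 14 tested transcription factors of the AP-1, ETS and RUNX families, 4 were higher and 1 lower with the triple knockdown (35.7%, beside 24.4%) and 6 were higher and 3 lower for Tmet (64.3%, beside 57.3%). Fos and Fosl1 both form AP-1 and moved in opposite directions. Fosl1 came to 10.8 and 10.9 CPM with shControl, 14.3 and 10.8 with shNkx2-1, 35.9 and 47.3 after the triple knockdown and 135 and 243 for Tmet. Fosl1 rose in the triple knockdown (log2 change 1.94 ± 0.30, adjusted p = 0.00289) and in Tmet (log2 change 4.12 ± 0.31, adjusted p = 2.3e-05), with no overlap between these groups or with the other 4 libraries. Fos levels in the shControl pair were 20.9 and 17.8 CPM, the shNkx2-1 pair 7.72 and 4.62, the triple knockdown pair 9.95 and 10.4, and the Tmet pair 0.984 and 1.16. Fos fell in Tmet (log2 change -4.16 ± 0.31, adjusted p = 1.93e-05), where both libraries were the lowest. Fos was also called lower in shNkx2-1 and in the triple knockdown against shControl. These calls were lost in fits that left out 1 of the libraries compared. Etv1, an ETS factor of the PEA3 group, was at or under 0.338 CPM in Tnonmet and at 23.2 and 12.2 in Tmet (log2 change 7.16 ± 0.54, adjusted p = 2.06e-05).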

How the data were processed

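The table the authors deposited holds RSEM's estimated counts of 23224 genes in 8 libraries, and 34.7% to 38.0% of the values per library are fractional. Libraries were polyadenylated RNA read single-end at 45 nt, per the labels' protocols. RSEM 1.2.12, Bowtie 1.0.1 and mm9 are named, without roles, per the submitters' processing notes. The sources used here give no annotation, strand setting or read filter. RSEM splits reads among similar genes, so near-identical Adam and Mmp copies on 1 chromosome (Mmp1a and Mmp1b, Adam1a and Adam1b) are uncertain.

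Values were rounded and filtered with filterByExpr (minimum count 10, minimum total 15), so that 13318 genes were tested and 9906 left out. All 8 libraries were fitted together by edgeR 4.0.16's quasi-likelihood method in R 4.3.3 (TMM factors 0.943 to 1.035, no covariate, degrees of freedom 4 residual and 3.94 prior, common coefficient of biological variation 15.6%), tested on simulated data first. Each of 5 comparisons was tested two-sided, and p was adjusted by Benjamini-Hochberg over all its tested genes. Alternatives were DESeq2 1.42.0, limma 3.58.1 (voom), other size factors and filters, a replicate block, the compared libraries alone and leaving out each library. Folds against 0 counts used a floor of 3 counts per library, and ratios with 1 to 3 counts a 95% exact interval; both cover counting error only. The members and the 12 lists were chosen with earlier results of these data known. Each Timp, each other member called anywhere with at least 2 CPM in its highest group, and up to 3 genes of each list with the smallest p are given by library; other members named were chosen after their values were seen. A further allele shared by all groups and 1 listed gene picked by this rule are not reported here.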

Additional observations from a re-analysis of the deposited data

How the results depend on the processing

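No result reversed under any alternative. Members called higher in shNkx2-1 against shControl numbered 3, and 5 in DESeq2, 1 with a replicate block, 10 with the compared libraries alone and 11 without both Tmet libraries (an alternative chosen after seeing the data), and 0 to 13 over the fits without 1 library. Those called lower numbered 0, and 1 with the compared libraries alone and 1 without both Tmet libraries, and 0 to 1 over the fits without 1 library. Over those fits, calls in the triple knockdown against shControl ranged from 4 to 13 higher (4 without shControl replicate 1) and 3 to 8 lower. Against shNkx2-1 they ranged from 4 to 8 higher and 3 to 14 lower, in Tmet against shControl from 18 to 22 and 9 to 12, and in Tmet against the triple knockdown from 11 to 17 and 8 to 10. Same-numbered libraries deviated together at r = 0.149, 0.166 and 0.227 in the 3 pairs of Tnonmet groups and at -0.0418, -0.150 and -0.161 with Tmet. With 2 numbers a group and not every pair over 0.1, the numbers were not taken as pairs. With the replicate block members called higher and lower numbered 1 and 0 for shNkx2-1, 10 and 6 for the triple knockdown and 20 and 9 for Tmet, each against shControl, 7 and 8 in the triple knockdown against shNkx2-1, and 13 and 9 in Tmet against the triple knockdown.

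Of 82 calls of the members given by library, 49 held under all alternatives and 33 were lost in some, 19 of these by leaving out 1 library alone. Of 63 such differences that did not pass, 27 passed in some alternative. In shNkx2-1 against shControl, rises of Adam8, Adam19, Adamts9, Mmp11, Mmp24, Mmp28 and Timp2 passed without both Tmet libraries. The fall of Timp3 passed there too, and the rise of Mmp14 with the compared libraries alone. Timp3 in Tmet against shControl passed without either Tmet library, with no filter and in limma-voom. Over all genes, calls in shNkx2-1 against shControl numbered 473, and 294 with the block, 908 in DESeq2, 1779 with the compared libraries alone, 2006 without both Tmet libraries and 0 without shControl replicate 1. In the triple knockdown the compared libraries alone gave 5607 calls in place of 3243 against shControl, and 4518 in place of 2711 against shNkx2-1. In Tmet the compared libraries alone gave fewer calls, 5944 in place of 7628 against shControl and 4413 in place of 6404 against the triple knockdown. Depth limits members near the floor, 0.151 to 0.200 CPM.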
